A study of Mus musculus with 2 samples.

Results

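Footprints outside called peaks are short stretches of DNA that DNase I cut less often than their surroundings, and that share no base with any accessible region called in the same sample. They were chosen by position alone from 2 calls that the authors made on the same reads: a footprint was taken when it overlapped no peak of the larger peak list deposited for its sample. The rule found 35526 of 339656 footprints in replicate 1 (10.5%, interval 10.4 to 10.6%) and 25665 of 234091 in replicate 2 (11.0%, interval 10.8 to 11.1%). The mean was 10.7% ± 0.357 (SD, n = 2), and both samples together held 61191 such footprints of 573747. Because peak positions made the choice, everything that follows about peaks near these footprints is a description. The choice did not use gene annotation, sequence or the footprints of the other sample. Place in genes entered the choice indirectly, since it depends on where the peaks lie around transcript starts. Width also entered the choice indirectly, since near an edge a wider footprint is more likely to share a base with the peak.

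The tissue was the gastrocnemius, the large calf muscle, of adult male mice of the B6CASTF1/J strain, a first-generation hybrid, aged 18 to 20 months. The labels give 2 samples in 1 group, biological replicates 1 and 2, which carry one donor label but separate biosample labels, so it is not known whether they are separate animals. There was no treatment, control or second group, so no test between groups was possible, no p-value is given, and any SD measures only the spread between these 2 samples, which may be technical. Whole muscle holds several cell types, both parental alleles were read on the reference genome, and the files give no read depth. Intervals are exact (Clopper-Pearson) 95% binomial intervals that cover counting error only, and footprints beside 1 peak share reads and are not independent.

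DNase I cuts DNA where nucleosomes are absent, so dense cutting marks promoters, enhancers and insulators. Within such a region a bound transcription factor shields its own site, which leaves a dip of a few bases in the cut pattern, the footprint. In vertebrate promoters common sites are the GC box of the SP and KLF factors and the sites of NF-Y, NRF1 and ETS factors. CTCF, which anchors chromatin loops and insulators, leaves a wide footprint, and in skeletal muscle the MyoD family (E-box), MEF2, SRF and the nuclear receptors bind enhancers of contractile and metabolic genes.

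The following sequences show the clearest members, the widest footprints that lay outside peaks in both samples with the same first and last base in both, from promoters, introns and intergenic DNA. Letters are from the RefSeq assembly GRCm38.p6 (mm10), plus strand, 5′ to 3′, with the footprint in capitals and 30 flanking bases on each side in lower case. The first is 307 bp upstream of the start of Cyp46a1, a brain cholesterol hydroxylase (footprint chr12:108334053-108334096, 44 bp). The next is 241 bp upstream of Plag1, a zinc finger factor (chr4:3938603-3938644, 42 bp). The intron footprint lies in Cmip (chr8:117290770-117290792, 23 bp). The intergenic ones lie 11134 bp downstream of the nearest protein-coding start, Tfap4 (chr16:4541811-4541846, 36 bp), and 39509 bp upstream of Zmynd8 (chr2:165938508-165938542, 35 bp).
Cyp46a1 promoter: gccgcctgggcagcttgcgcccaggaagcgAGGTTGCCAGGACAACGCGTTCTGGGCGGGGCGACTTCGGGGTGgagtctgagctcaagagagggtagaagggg
Plag1 promoter: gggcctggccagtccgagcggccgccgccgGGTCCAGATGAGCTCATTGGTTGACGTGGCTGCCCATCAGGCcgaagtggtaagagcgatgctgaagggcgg
Cmip intron: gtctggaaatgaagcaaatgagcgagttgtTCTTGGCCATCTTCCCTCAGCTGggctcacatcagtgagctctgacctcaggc
Intergenic near Tfap4: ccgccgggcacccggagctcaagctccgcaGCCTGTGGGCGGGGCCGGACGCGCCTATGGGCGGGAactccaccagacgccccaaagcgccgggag
Intergenic near Zmynd8: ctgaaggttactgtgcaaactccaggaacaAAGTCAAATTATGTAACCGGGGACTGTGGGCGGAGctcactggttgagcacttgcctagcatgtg

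The GC box GGGCGG, searched on both strands, lies inside 3 of these 5 footprints: once beside Cyp46a1, at 2 places beside Tfap4 and once beside Zmynd8. The Plag1 footprint holds the NF-Y motif CCAAT on the minus strand, and the Cmip footprint ends on the myogenic E-box CAGCTG. These 5 lay 14 to 96 bp from the nearest peak edge. The signal of the nearest peak ran from 1.60 and 1.94 beside Cmip in replicates 1 and 2 to 15.5 and 15.9 beside Tfap4. Peak signal is in the authors' unit, whose scale is not given in the sources used here. The median over all peaks was 0.599 in replicate 1 and 0.760 in replicate 2. The peaks nearest to these 5 footprints were all above it in both replicates.

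Most of the footprints outside peaks lay just beyond the edge of a strong peak. The median gap to the nearest peak edge was 34 bp in replicate 1 and 36 bp in replicate 2, and 64.5% and 63.2% lay within 50 bp. Within 150 bp lay 92.5% and 92.3% (mean 92.4% ± 0.168, SD, n = 2). The farthest were 554 and 552 bp away, and 165 and 157 footprints were more than 300 bp from a peak. Between 2 peaks, each at most 300 bp away, lay 17.2% (interval 16.8 to 17.6%) and 15.6% (15.1 to 16.04%). The nearest peak had a median signal of 2.61 and 3.15, against 1.02 and 1.29 for the peaks that held the inside footprints.

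A minority of peaks carried these flanking footprints. Of the peaks, joined where they touched, 20083 of 129310 (15.5%) in replicate 1 and 14369 of 89765 (16.01%) in replicate 2 were the nearest peak of at least 1 of them. The median signal of these peaks was 1.85 and 2.22, against 0.629 and 0.805 for peaks with inside footprints only. Most of the peaks with any had 1 (58.8% and 58.7%), while 891 and 650 peaks had 5 or more, up to 13 and 14 at 1 peak.

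The cut signal itself extended past the called peaks. The authors' site files give a false discovery rate of cutting for stretches of bases, and 99.3% and 99.2% of the footprints outside peaks touched a stretch with a rate under 0.05. The remaining 260 (0.732%) and 208 (0.810%) touched no stretch at all, so the limit of 0.05 left out no footprint that touched a stretch. A rate under 0.001 was reached at 84.4% and 81.8% (mean 83.1% ± 1.87, SD, n = 2). Among inside footprints it was reached at 81.8% in replicate 1 and 77.5% in replicate 2. The unbroken stretch of sites that held a footprint outside a peak had a median length of 822 and 788 bp, against 371 and 369 bp for inside footprints, and it held a peak for 96.9% and 95.8%. The long stretches and the short peaks come from the same reads, so this describes how the calls differ in extent.

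Around the threshold, footprints just inside and just outside were first compared by their overlap. Those overlapping a peak by 1 to 5 bp numbered 4350 in replicate 1 and 2880 in replicate 2, and those starting 0 to 4 bp beyond a peak 3704 and 2561. Their mean widths were 11.0 and 11.1 bp just inside and 10.9 and 10.9 bp just outside. The other sample had a footprint at 37.7% and 56.1% of those just inside and at 37.3% and 56.7% of those just outside. Promoters held 43.1% and 51.1% just inside and 46.03% and 54.3% just outside. Binned by midpoint, the 2 sides differed over all peaks: in the last 10 bp inside an edge 30.1% (interval 29.3 to 30.9%) and 47.8% (46.8 to 48.8%) were shared, and in the first 10 bp outside 39.2% (38.1 to 40.2%) and 57.8% (56.5 to 59.1%). The mean widths in these bins were 10.6 and 10.5 bp inside and 11.4 and 11.4 bp outside, and the outside bin still holds footprints that reach into the peak (3870 of its 8050 and 2646 of its 5468 do not). Beside the 25% of peaks with the highest signal the same bins gave 50.5% and 65.7% inside and 50.5% and 66.9% outside, with overlapping intervals.

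Footprints outside peaks were narrower than those inside. The mean width was 10.8 bp in both replicates, against 13.3 and 13.5 bp inside. The difference was -2.52 and -2.70 bp (mean -2.61 ± 0.132, SD, n = 2), larger than the spread between replicates. The medians were 9 bp outside and 10 bp inside in both replicates. The narrowest width in the files, 7 bp, made up 34.5% and 34.9% of the outside group and 25.2% and 25.8% of the inside group. Footprints of 20 bp or more were 7.99% and 8.26% outside and 18.6% and 19.3% inside. The widest outside footprints spanned 60 and 57 bp.

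**Figure D1:**
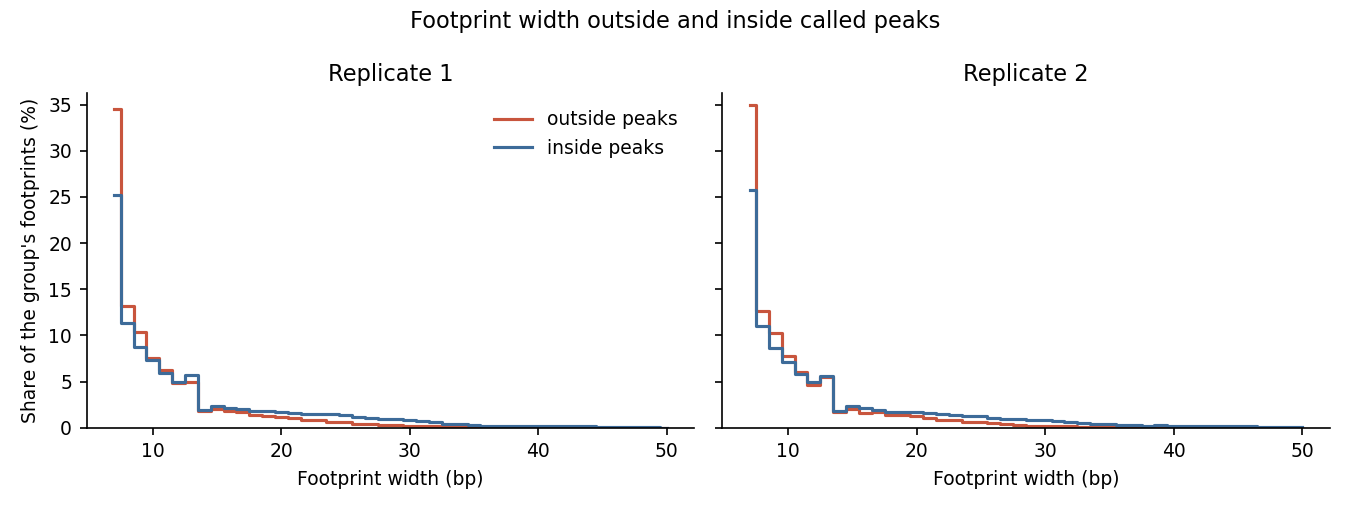
Share of each group's footprints (vertical axis, %) at each width (horizontal axis, bp, up to 50 bp), for footprints outside and inside called peaks in both replicates. The outside curve is higher at 7 bp (34.5% and 34.9% against 25.2% and 25.8%) and lower above 20 bp.

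Agreement between the samples was next compared, since the other sample's footprints played no part in the choice. Of all footprints, 41.6% in replicate 1 and 61.5% in replicate 2 shared at least 1 bp with a footprint of the other sample. Replicate 1 lists more footprints than replicate 2. Outside peaks 12899 of 35526 were shared in replicate 1 (36.3%, interval 35.8 to 36.8%) and 13478 of 25665 in replicate 2 (52.5%, 51.9 to 53.1%). Inside peaks the shares were 42.2% (42.0 to 42.3%) and 62.6% (62.4 to 62.8%). The difference, outside minus inside, was -5.86 percentage points in replicate 1 and -10.1 in replicate 2. The outside values (36.3 and 52.5%) and the inside values (42.2 and 62.6%) overlap across replicates, and the difference is seen only within a sample.

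Width and peak strength both moved with agreement. A wider footprint is more likely to share 1 bp by position alone, and the part of this in the values was not tested. Among the 7 bp footprints 19.6% and 34.7% were shared outside, against 19.4% and 38.1% inside. Among those of 20 bp or more 88.1% (interval 86.8 to 89.2%) and 97.2% (96.4 to 97.8%) were shared outside, against 86.1% and 98.2% inside. In each of 5 width classes the outside share was above the inside share in replicate 1, by less than the intervals at 7 bp, and below it in replicate 2, so the direction at a given width differed between the samples. Beside the 25% of peaks with the highest signal, 45.8% and 62.0% of outside footprints were shared, against 66.3% and 78.0% of the inside ones. Beside the weakest 25% of peaks the outside share was 4.48% and 14.2%, against 5.39% and 24.9% inside.

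An outside footprint that was shared often met an outside footprint of the other sample (58.9% and 56.9% of the shared ones). In replicate 1, 7599 footprints (21.4% of the outside group) met an outside footprint of replicate 2, and in replicate 2, 7664 (29.9%) met one of replicate 1. Among inside footprints only 1.89% and 2.57% met an outside one. The place of an outside footprint fell in a peak of the other sample for 28.8% and 36.8%. Where the other sample had a stretch of sites, 44.3% and 56.2% of outside footprints were shared, against 57.4% and 66.2% of inside ones. The same first and last base was found in the other sample for 2.02% and 2.81% of outside footprints and 2.43% and 3.54% of inside ones. The same-ended footprints that lay outside peaks in both samples numbered 424, with 305 in promoters, 54 in introns and 57 in intergenic DNA.

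**Figure D2:**
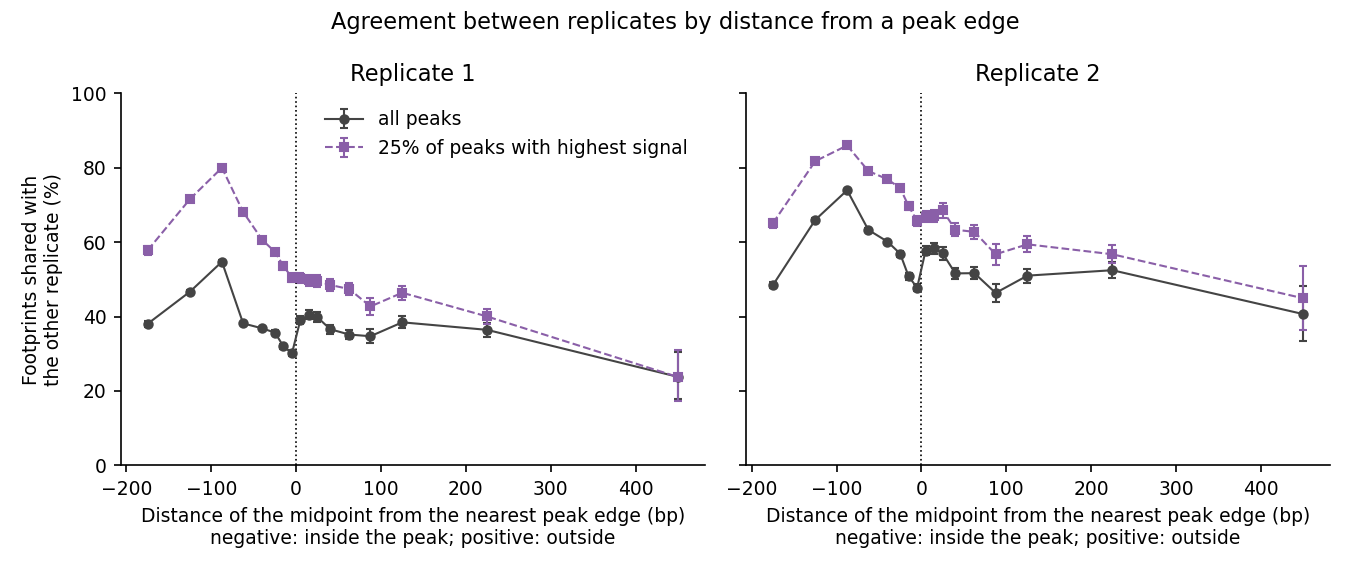
Share of footprints that overlap a footprint of the other replicate (vertical axis, %) by the distance of the footprint's midpoint from the nearest peak edge (horizontal axis, bp; negative values lie inside a peak), for all peaks and for the 25% of peaks with the highest signal, with 95% intervals; the outermost bins are open-ended. Around the strongest peaks the share is highest in the bin of 75 to 100 bp inside the edge (80.03% and 86.02%), about level across the edge itself (50.5% and 65.7% inside, 50.5% and 66.9% outside) and lower at 75 to 100 bp outside (42.7% and 56.8%). Over all peaks it steps up at the edge.

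Farther out, over all peaks, agreement had no steady order with distance. In the 4 bins from 50 to 300 bp outside an edge, over all peaks, it was between 34.7% and 38.5% in replicate 1 and between 46.4% and 52.5% in replicate 2, lowest at 75 to 100 bp in both. Past 300 bp the shares were 23.8% (interval 17.8 to 30.6%) of 185 footprints and 40.7% (33.4 to 48.3%) of 177.

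Promoters held more of the footprints outside peaks than any other place. A promoter was the 1000 bp on either side of a protein-coding transcript start of GENCODE M21. It held 54.0% (interval 53.5 to 54.5%) of outside footprints in replicate 1 and 61.0% (60.4 to 61.6%) in replicate 2, against 27.3% and 36.0% of inside footprints. The difference was 26.7 and 25.05 percentage points (mean 25.9 ± 1.15, SD, n = 2), larger than the spread between replicates. Introns held 22.5% and 18.1% outside against 38.0% and 31.6% inside, and intergenic DNA 18.9% and 16.1% against 28.3% and 26.1%. Coding exons (1.24% and 1.36%) and untranslated or other exons (3.33% and 3.38%) held few. Counted the other way, 18.8% and 17.3% of all promoter footprints lay outside peaks, but 6.47% and 6.59% of those in introns and 7.24% and 7.08% of those in intergenic DNA. This excess depends on which peak list is used: with the smaller, stricter list of each sample 29.4% of footprints lay outside, and the promoter difference, outside minus inside, was then -6.02 percentage points.

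**Figure D3:**
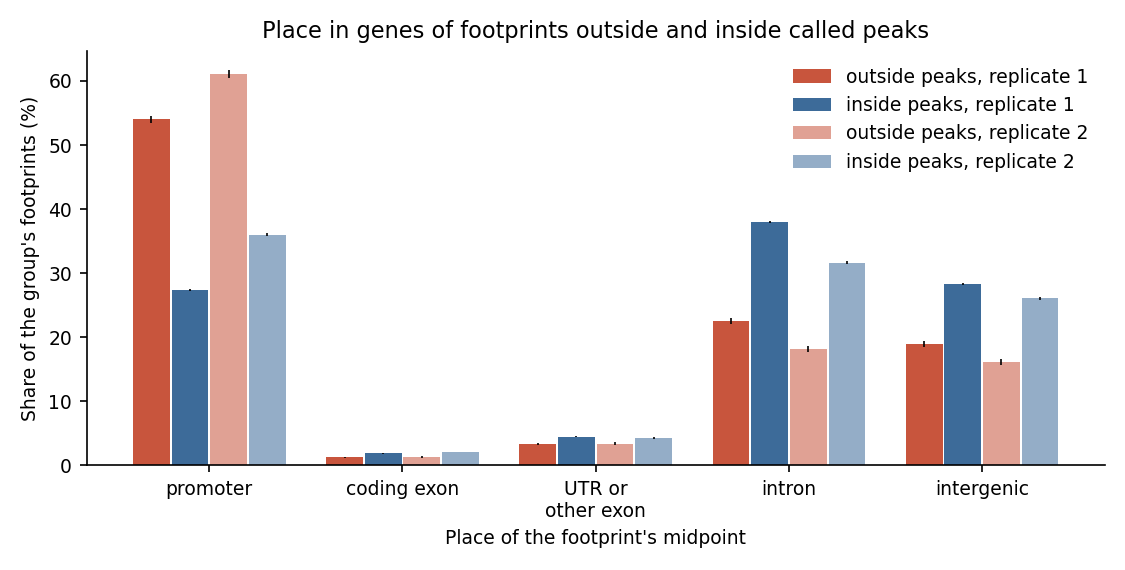
Share of footprints outside and inside called peaks (vertical axis, %) whose midpoint lies in a promoter, a coding exon, an untranslated or other exon, an intron or intergenic DNA, in each replicate, with 95% intervals. Promoter bars are at 54.0% and 61.0% outside against 27.3% and 36.0% inside, and intron and intergenic bars are lower outside.

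In every place the outside footprints were narrower and less often shared. In promoters they averaged 11.3 and 11.2 bp, against 14.6 and 14.5 bp inside, and 46.9% and 57.5% were shared, against 60.6% and 67.8%. In introns they averaged 9.99 and 10.0 bp, against 12.5 and 12.8 bp, and 22.2% and 43.5% were shared, against 33.1% and 59.4%. In intergenic DNA 26.1% and 47.9% were shared, against 37.7% and 61.0%. Promoter peaks were the stronger ones: the median signal of the peak nearest to an outside footprint was 4.802 and 5.23 in promoters and 1.09 and 1.06 elsewhere. The part of peak strength in these shares was not tested.

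Around transcript starts the outside footprints formed 2 shoulders where the inside footprints formed 1 summit. Peak positions divide the 2 groups, so these shapes are a description and not separate from the choice. Inside footprints were most frequent in the 50 bp before the start (17.9% and 18.7% of promoter footprints). Outside footprints had 8.82% and 9.90% there and only 5.39% and 6.08% in the 50 bp before that. They were most frequent in the first 50 bp after the start (12.8% and 12.6%), with a lower shoulder at 150 to 200 bp upstream (7.67% and 7.35%, against 4.98% and 5.25% inside). Downstream of the start lay 47.2% (interval 46.5 to 47.9%) and 46.4% (45.7 to 47.2%) of outside promoter footprints, against 39.4% and 39.5% inside. Their median distance from the start was 143 and 144 bp, against 102 and 96 bp.

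**Figure D4:**
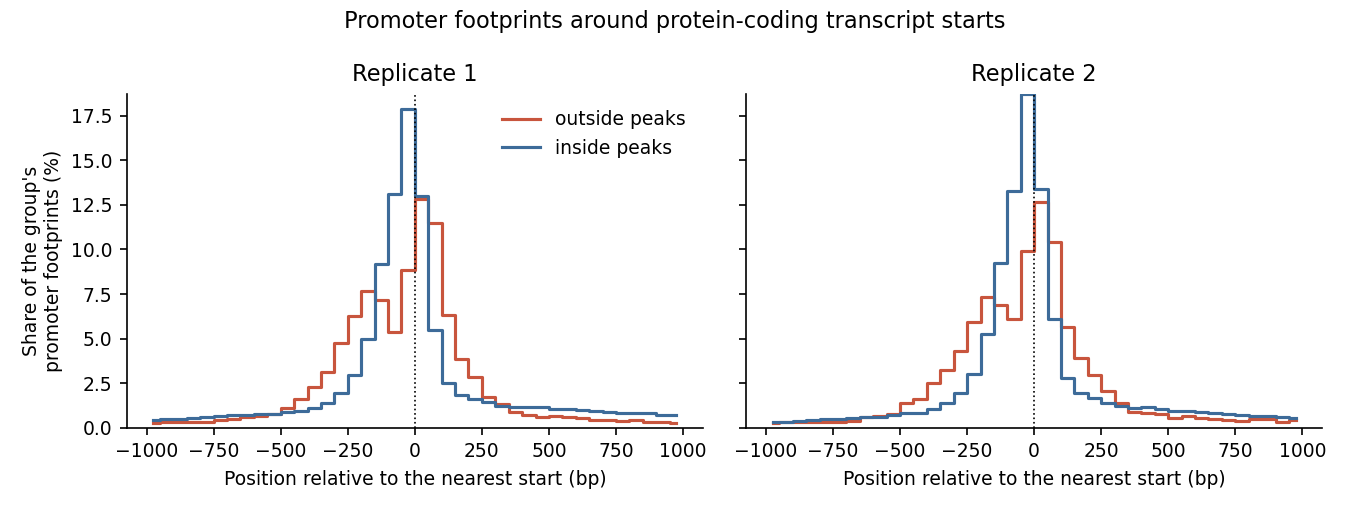
Share of each group's promoter footprints (vertical axis, %) in bins of 50 bp around the nearest protein-coding transcript start (horizontal axis, bp, positive downstream), outside and inside called peaks. The outside group dips just upstream of the start (5.39% and 6.08%) and is highest just after it (12.8% and 12.6%), while the inside group is highest just before it (17.9% and 18.7%).

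Base composition followed the place. In a window of 30 bp centred on the footprint, G and C made up 59.5% and 61.5% outside and 56.9% and 60.1% inside, a difference of 2.56 and 1.40 percentage points. Within promoters the values were 65.4% and 65.9% outside against 65.5% and 66.7% inside, and elsewhere 52.6% and 54.6% against 53.7% and 56.4%. So the higher value over all footprints was not seen within either class, where the outside group was lower in both replicates, and with the stricter peak list the overall difference was -2.59 points. Soft-masked repeat bases made up 9.98% and 9.06% of the windows outside and 7.998% and 7.27% inside.

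Known motifs were less frequent at footprints outside peaks than at all inside footprints. At least 1 of the 18 motifs lay in 23.0% and 23.6% of the 30 bp windows outside, against 27.0% and 27.6% inside (difference -4.02 ± 0.0392 percentage points, SD, n = 2). Of the 18 motifs, 9 were less frequent outside in both replicates with intervals that did not overlap, and 1, the GC box, more frequent. In promoters 7 were lower and none higher by this measure, and elsewhere 3 were lower and 1 higher. The edge of a peak was closer to the outside: against inside footprints with their midpoint less than 30 bp within an edge, or beyond it, 3 were lower (AP-1, TEAD and the nuclear receptor motif) and 3 higher (the GC box, NRF1 and the cyclic AMP response element). In promoters none was then lower and 1 higher, and elsewhere none lower and 2 higher. All were searched on both strands, and a match is a match of letters and not a bound site.

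CTCF differed most. Its motif was in 58 of the outside windows of replicate 1 (0.163%, interval 0.124 to 0.211%) and 50 of replicate 2 (0.195%, 0.145 to 0.257%), against 1.84% and 2.15% of inside windows. The ratio of outside to inside was 0.0887 and 0.0908, 0.220 and 0.370 in promoters, and 0.108 and 0.0921 elsewhere. Among footprints of 20 bp or more the motif was in 0.987% and 1.09% outside and 8.14% and 8.82% inside, so the gap was present among wide footprints too. Inside peaks it sat in the core: windows of inside footprints less than 30 bp from an edge held it in 0.183% and 0.351%, and deeper ones in 2.23% and 2.57%. In replicate 1, 14 outside footprints with the motif met an outside footprint of replicate 2, none with the same ends. The pair below shows 1 of these and an inside footprint, both chosen after their values were seen, with the motif in capitals. The outside one lies in intergenic DNA (chr1:75653736-75653752, 17 bp), 108 bp from the nearest peak in replicate 1 and 96 bp in replicate 2. The inside one lies in intergenic DNA 74593 bp upstream of Larp1 (chr11:57934447-57934495, 49 bp).
CTCF motif, outside: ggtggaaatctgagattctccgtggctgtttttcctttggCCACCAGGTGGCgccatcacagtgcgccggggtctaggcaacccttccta
CTCF motif, inside: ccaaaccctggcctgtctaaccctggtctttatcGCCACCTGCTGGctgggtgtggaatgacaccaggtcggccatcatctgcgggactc

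The GC box went the other way over all footprints, but not in promoters. It was in 9.27% and 11.0% of outside windows and 6.48% and 8.76% of inside windows (ratio 1.43 and 1.26). In promoters it was less frequent outside (14.6% and 15.4% against 17.7% and 18.7%), and elsewhere it was more frequent (3.07% and 4.17% against 2.28% and 3.18%). Other promoter motifs were scarcer outside than inside within promoters: NF-Y (CCAAT) was at 2.76% and 3.07% against 5.45% and 5.28%, and the ETS motif CCGGAAG at 1.17% and 1.25% against 2.01% and 2.17%. The NRF1 motif GCGCATGC was at 0.454% and 0.511% against 0.870% and 0.962%. The cyclic AMP response element TGACGTCA, bound by the CREB and ATF factors, was at 0.209% and 0.236% against 0.620% and 0.652%. At the inside edge of promoter peaks the shares were near or below the outside ones for the GC box (12.9% and 13.7%), NRF1 (0.433% and 0.535%) and the cyclic AMP response element (0.138% and 0.156%), and between outside and inside for NF-Y (3.52% and 3.48%) and ETS (1.42% and 1.60%). Motifs above their inside share in promoters in both replicates, with overlapping intervals, were TEAD (CATTCC), at 1.03% and 0.964% against 0.968% and 0.945%, and RUNX (TGTGGTT), at 0.250% and 0.274% against 0.215% and 0.199%. An outside promoter footprint nearest to Cul3, an E3 ubiquitin ligase scaffold, shows a GC box in capitals at the end of a 22 bp footprint (chr1:80340807-80340828) with the same ends in both samples, 72 bp from the nearest peak.
Cul3 promoter: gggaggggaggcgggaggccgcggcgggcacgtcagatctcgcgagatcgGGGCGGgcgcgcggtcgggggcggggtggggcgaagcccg

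The myogenic E-box, MEF2, AP-1 and NFI motifs were less frequent outside peaks over all footprints. The myogenic E-box was in 2.23% and 2.18% of outside windows and 3.27% and 3.28% of inside windows, and MEF2 in 0.276% and 0.132% against 0.439% and 0.218%. AP-1 (TGANTCA), the FOS and JUN site, was at 0.723% and 0.608% against 1.37% and 1.01%, and the NFI motif TTGGCA at 2.88% and 2.15% against 4.70% and 3.76%. Away from promoters the ratio of outside to inside was 0.824 and 0.796 for the myogenic E-box and 0.778 and 0.743 for NFI, with separate intervals in both replicates, and the intervals of MEF2 (0.842 and 0.935) and AP-1 (0.769 and 0.902) overlapped in at least 1 replicate. Against the inside edge of peaks away from promoters the ratios were 1.10 and 1.02 for the myogenic E-box, 1.28 and 1.19 for NFI, 1.10 and 0.978 for AP-1 and 1.09 and 0.758 for MEF2. The nuclear receptor motif AGGTCA, which the longer ERR motif TCAAGGTCA contains, was at 1.49% and 1.19% against 2.00% and 1.66%. The SRF-bound CArG box (36 and 26 outside windows) was at 0.101% and 0.101% against 0.119% and 0.103%, with overlapping intervals in both replicates. The ERR motif (11 and 3 outside windows) and the steroid receptor element (11 and 3) were too rare outside to compare.

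**Figure D5:**
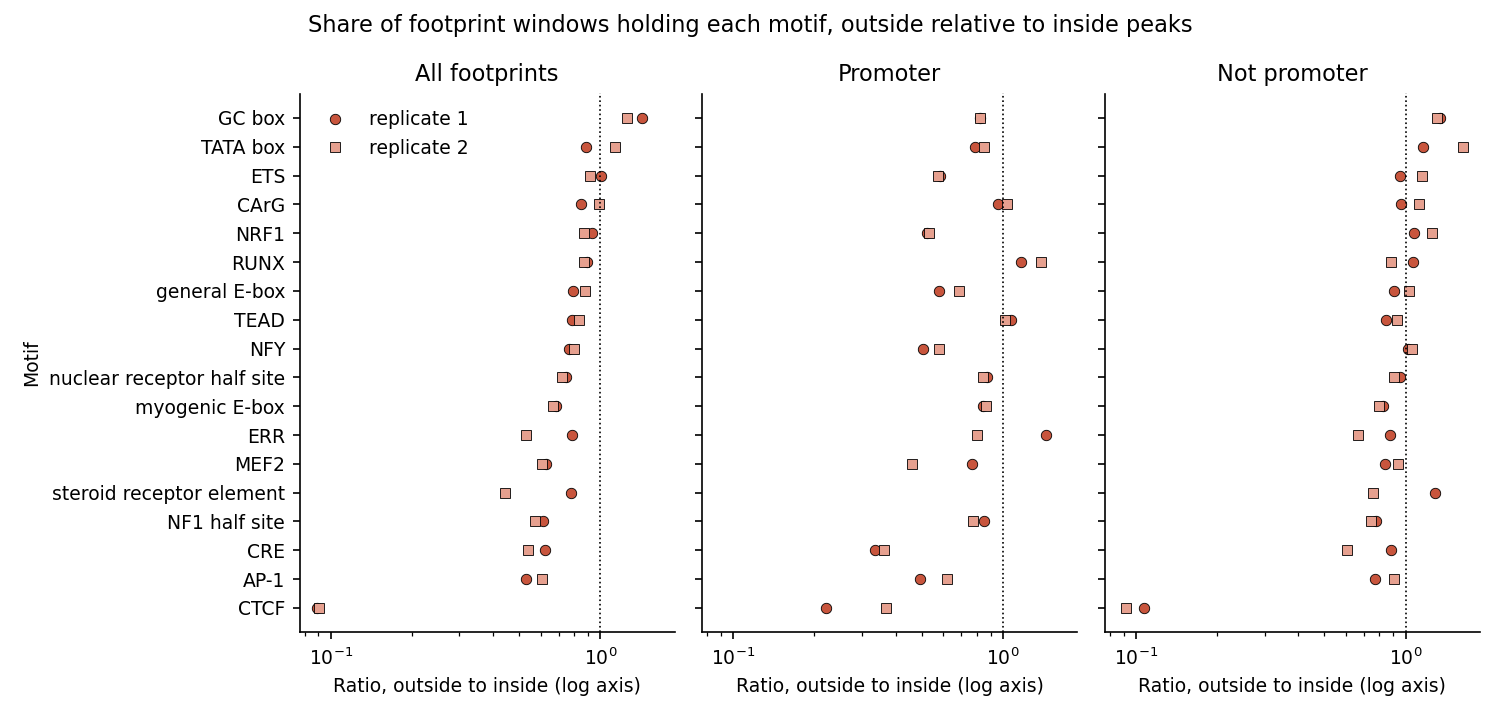
Ratio of the share of 30 bp windows that hold each of 18 motifs, outside to inside called peaks (horizontal axis, log scale; 1 is equal), for all footprints, promoter footprints and others, with 1 point for each replicate; a ratio of 0 is not drawn. CTCF is lowest at 0.0887 and 0.0908, and the GC box is above 1 over all footprints (1.43 and 1.26) and below 1 in promoters (0.824 and 0.825).

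Housekeeping genes and genes of oxidative metabolism had a larger part of their footprints outside peaks than contractile genes. Each gene was taken with 2 kb on both sides, and the share counts outside footprints among all footprints there. Sums over genes count a footprint once for each gene it falls in. Over the 21911 protein-coding genes it was 12.6% and 12.9%; 10621 (48.5%) and 9193 (42.0%) genes had at least 1 outside footprint, 4802 (21.9%) had 1 found outside in both samples, and the median per 10 kb was 0. The 14 housekeeping genes stood at 21.3% (58 of 272 footprints) and 22.1% (47 of 213). The 15 mitochondrial and oxidative genes stood at 18.5% (47 of 254) and 25% (51 of 204). The 14 fast fibre genes stood at 12.2% (52 of 427) and 10.8% (22 of 203), the 11 slow fibre genes at 11.1% and 7.14%, and the 16 shared sarcomere genes at 9.86% (64 of 649) and 6.71% (30 of 447). Glycolysis and glycogen genes (13.9% and 11.6%) and myogenic regulators (10.8% and 10.7%) lay near the value for all genes. Clock genes stood at 11.7% and 15.4%, but the long gene Rora held 278 of their 718 footprints and 161 of 473. With Rora left out, a step added after the values were seen, the clock share was 14.8% and 21.2%, above the value for all genes.

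Where the footprints lie moved with these shares. Promoter windows held 71.7% and 85.0% of the housekeeping genes' footprints and 25.9% and 27.3% of the sarcomere genes', against 47.0% and 57.03% over all genes. Within promoter windows alone, the outside share was 28.7% and 24.9% for housekeeping genes, 28.4% and 31.6% for oxidative genes, 15.5% and 9.80% for fast fibre genes and 11.3% and 6.56% for sarcomere genes, against 19.1% and 17.5% over all genes. The median number per 10 kb was 2.57 and 1.87 for housekeeping genes, 1.25 and 1.18 for oxidative genes and 0.358 and 0.128 for sarcomere genes. These are counts over small lists, and no test was made. With each member left out in turn, a step added after the values were seen, the share ran from 19.8 to 22.4% and 19.8 to 24.6% for housekeeping genes, 16.7 to 21.1% and 22.1 to 26.9% for oxidative genes, 10.7 to 14.4% and 9.04 to 12.2% for fast fibre genes and 9.06 to 10.7% and 6.04 to 7.34% for sarcomere genes.

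The tissue label was checked on all footprints of marker genes, inside and outside. The 6 muscle fibre genes held 284 and 148 footprints, of which 33 (11.6%) and 20 (13.5%) lay outside peaks. Myh4, the fast myosin heavy chain gene, named after its values were seen, had more than any other of these genes in replicate 1, with 5 outside, and 4 in replicate 2, with 3 outside. Without it the list held 183 and 144, with 28 (15.3%) and 17 (11.8%) outside, so the order of the 2 replicates turned. The 11 liver genes held 23 and 19, with 1 and 0 outside, and Alb, the serum albumin gene, had none of either kind. Markers of other cells of muscle held 110 and 81 footprints (endothelial, 6 genes), 143 and 113 (fibroblast, 6 genes), 41 and 30 (macrophage, 5 genes), 73 and 48 (satellite cell, 4 genes), 37 and 28 (Schwann, 4 genes) and 50 and 29 (adipocyte, 4 genes). In the same order, 11.8% and 1.23%, 8.39% and 8.85%, 19.5% and 3.33%, 8.22% and 12.5%, 18.9% and 3.57%, and 2% and 0% of these lay outside peaks. Of footprints found outside peaks in both samples these 6 lists held at most 3 each, and the muscle fibre list 2. Summed over all protein-coding genes, 8569 of 271473 in replicate 1 were of this kind, with a footprint counted for each gene it falls in. The list counts are too small to compare. The 12 neuron genes held 180 and 142, with 13 and 8 outside. These counts are not adjusted for gene length or list size. In replicate 2 the neuron count was near the 148 of the muscle fibre genes, so the counts do not settle the tissue label.

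Single genes show the pattern base by base. Acadm, which encodes the medium-chain acyl-CoA dehydrogenase of fatty acid oxidation, had 8 of 20 footprints outside in replicate 1 and 7 of 13 in replicate 2, the most found in both samples (5) among the oxidative genes. All 5 lay in its promoter, from 314 bp upstream of the start to 22 bp downstream, 1 to 202 bp from a peak with a signal of 7.88 and 9.40. A footprint of 23 bp at chr3:153944787-153944809 had the same ends in both. Esrra, the estrogen-related receptor of oxidative metabolism, had 7 of 23 and 4 of 21 outside, with 3 found in both within its promoter beside a peak of 14.04 and 14.8.

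Clock and housekeeping genes gave further cases. Nr1d1 and Nr1d2 encode the REV-ERB repressors of the clock. Nr1d2 had 4 of 32 footprints outside in replicate 1 and 6 of 20 in replicate 2, with 4 found in both, and Nr1d1 9 of 67 and 8 of 33, with 3 found in both. In Nr1d1 a 20 bp intron footprint at chr11:98773758-98773777 had the same ends in both samples and lay 3 and 43 bp from a peak of signal 12.7 and 15.2. Ywhaz, which encodes an adaptor for phosphorylated proteins, had 9 of 28 and 6 of 23, with 4 found in both.

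As lists, contractile genes had few that recurred, in counts too small to compare. Of the outside footprints of replicate 1, 4 of 52 at fast fibre genes were found outside in both samples. At slow fibre genes it was 1 of 15 and at shared sarcomere genes 2 of 64. Summed over all protein-coding genes it was 8569 of 34094, with a footprint counted for each gene it falls in. Recurrence needs footprints in replicate 2. In the same order, the lists held 203, 84 and 447 there, against 427, 135 and 649 in replicate 1. Over all genes the sums were 198022 in replicate 2 and 271473 in replicate 1. The single cases below, picked for having most, vary, and Srf and Gys1 come from the lists of myogenic regulators and of glycolysis and glycogen. Ckm, the muscle creatine kinase gene with 68 and 33 footprints, had 9 and 5 outside and none found outside in both. Actn3, the fast fibre Z-disc actinin, had 5 of 22 and 4 of 16, and the 2 found in both lie 91 and 100 bp downstream of the start of its neighbour Zdhhc24. Pvalb, the calcium buffer of fast fibres, had 3 of 31 and 3 of 11, with 2 found in both in its intron, 8800 and 8857 bp from the start. Srf, which encodes the serum response factor, had 2 of 24 and 2 of 16, both of replicate 1 found in replicate 2, 1 in the promoter 12 bp upstream of a start and 1 in an intron, 2360 bp upstream of another start of the gene. Gys1, muscle glycogen synthase, had 3 of 39 and 3 of 27, of which 2 lie at the start of Ruvbl2.

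The 10 genes with most footprints found outside peaks in both samples were then examined. Gm20388 (40) and Fgfr2 (10) are annotated records that span many neighbours, so their counts cannot be given to 1 gene. H2-DMa (14), of antigen loading, and Brd2 (12), which encodes a bromodomain protein that reads acetylated histones, overlap within their flanks, so footprints there count for both. Brd2 had 22 of 47 footprints outside in replicate 1 and 21 of 52 in replicate 2. Hdgfl2 had 13 of 31 and 13 of 33 outside, with 11 found in both. Hspa2, a chaperone gene of the heat shock family, had 13 of 25 and 12 of 26 (10 in both), and Sec16a, of the endoplasmic reticulum exit sites, 14 of 33 and 12 of 28 (10 in both). Nsun2, an RNA methyltransferase gene (20 of 55 and 11 of 41), and Zfp78, a zinc finger gene (15 of 28 and 12 of 28), each had 10 in both, and Ppp2r3d had 9.

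Footprints found outside peaks in both samples were mostly single. With gaps of at most 200 bp joined, the 7599 of replicate 1 fell into 5589 runs, 4218 of them of 1 footprint and 45 of 5 or more. The longest row was the promoter of Hdgfl2 (chr17:56079102-56079680), with 11 found in both from 522 bp upstream of the start to 14 bp downstream. A peak with a signal of 13.45 and 13.96 sits within it, and 11 of 14 and 10 of 13 of its footprints lay outside that peak. Sec16a and Hspa2 followed with 9 each, and Nmt2, an N-myristoyltransferase gene, and the start shared by Chchd7 and Plag1 with 8 each. In the Nmt2 run 10 of 12 footprints lay outside in each replicate, and in the Chchd7 and Plag1 run 9 of 11. Rfx1 and Efcab2, promoter runs outside the rule, also had 8.

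The Sec16a and Hspa2 runs held no peak in replicate 1, and their sequences show how densely such a stretch is covered. The Sec16a run (chr2:26445480-26445727, 276 to 506 bp upstream of the start) had 10 footprints of replicate 1, none in a peak, between a peak 99 bp away with a signal of 10.5 and another 33 bp away with 3.71. In replicate 2 it had 8, none of them in a peak, although a peak with a signal of 12.4 reached into the run. The Hspa2 run (chr12:76403733-76404008, 178 to 435 bp upstream) had 10 and 9, all outside, 92 and 52 bp from a peak of 9.81 and 12.4. Another run, chosen after its values were seen because it lies far from protein-coding starts, is at chr16:25059018-25059265, at least 227557 bp upstream of the nearest protein-coding start, Tprg. It had 8 footprints in each replicate, all outside, 15 bp from a peak of 12.5 and 11.9. Each sequence is given with 10 bases on either side and the replicate 1 footprints outside peaks in capitals.
Sec16a run: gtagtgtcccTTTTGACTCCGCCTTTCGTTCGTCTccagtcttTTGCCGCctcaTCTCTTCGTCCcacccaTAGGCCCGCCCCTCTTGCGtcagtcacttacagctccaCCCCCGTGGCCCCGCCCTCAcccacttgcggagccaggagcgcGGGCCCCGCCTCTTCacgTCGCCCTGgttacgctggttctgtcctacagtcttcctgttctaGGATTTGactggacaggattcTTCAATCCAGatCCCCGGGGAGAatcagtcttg
Hspa2 run: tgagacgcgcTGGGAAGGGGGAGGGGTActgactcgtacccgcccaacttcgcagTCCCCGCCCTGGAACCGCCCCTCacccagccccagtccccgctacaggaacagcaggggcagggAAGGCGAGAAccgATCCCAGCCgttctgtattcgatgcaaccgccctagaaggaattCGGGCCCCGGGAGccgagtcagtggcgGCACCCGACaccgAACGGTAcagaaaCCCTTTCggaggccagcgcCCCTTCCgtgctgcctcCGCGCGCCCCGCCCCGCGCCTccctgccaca
Run nearest Tprg: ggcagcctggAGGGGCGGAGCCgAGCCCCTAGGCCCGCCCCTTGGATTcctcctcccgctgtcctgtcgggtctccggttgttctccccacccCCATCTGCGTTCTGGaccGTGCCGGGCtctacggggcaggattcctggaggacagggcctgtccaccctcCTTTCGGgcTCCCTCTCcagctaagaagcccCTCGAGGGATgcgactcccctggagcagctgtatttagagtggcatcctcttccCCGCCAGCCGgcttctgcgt

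The capitals cover 49.6% of the Sec16a sequence, 41.9% of the Hspa2 sequence and 35.8% of the one nearest Tprg, in footprints of 7 to 25 bp. G and C make up 59.7%, 68.6% and 66.8%. The GC box occurs 2, 5 and 2 times, of which 2, 3 and 2 lie wholly within capitals. Of the 32851 RefSeq promoter sequences of 300 bp, 35.7% hold at least 1 GC box, and NF-Y, whose motif none of these 3 sequences holds, is in 37.4%.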

How the data were processed

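Peaks, sites and footprints on mm10 were analysed as deposited, made per sample from filtered alignments, per the deposited descriptions. The aligner, callers and their settings are not given in the sources used here. Signal is column 7 of the deposited peak lists. The p-value type column is a false discovery rate in the deposited site files and a constant 0.01 in the deposited footprint files, which is a threshold and no measurement. The larger of the 2 peak lists of each sample was used (131398 and 91567 peaks), with overlapping or touching peaks joined and the highest signal kept. Footprints were placed by midpoint in the order promoter, coding exon, other exon, intron, intergenic. Shared means at least 1 bp. Sequence came from RefSeq GRCm38.p6 and annotation from GENCODE M21. Helpers were tested on simulated intervals and planted motifs. Python 3.11.15, NumPy 2.4.6, pandas 2.3.3, SciPy 1.17.1 and Matplotlib 3.10.9 were used.

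The members and gene lists were chosen with earlier results of these data known. Named genes were the 10 with most footprints found outside in both samples, the 5 with most per 10 kb among those with 10 or more, and 2 from each list. Named runs were the 5 with most, and sequences the 2 widest same-ended footprints of each place and the first with 3 motifs most raised outside, of which the GC box is shown. Some items that the rule names are not reported here. Alternatives were other peak lists, overlaps, windows and widths, and leaving out a replicate.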

Additional observations from a re-analysis of the deposited data

How the results depend on the processing

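No paired analysis was possible because both samples belong to 1 group. Of the 61 alternatives that kept both replicates, 24 moved a value by less than 1 SD between replicates, 35 moved it further and 2 reversed it. The reversals came with the stricter peak list, with a promoter share difference of -6.02 points and a GC difference of -2.59 points. That list also gave an outside share of 29.4%, a width difference of -4.27 bp, an intergenic difference of -0.166 points, an agreement of 31.2% (difference -28.8 points), a motif difference of -5.83 points, 40.4% within 150 bp of a peak and 32.8% with a false discovery rate under 0.001. Taking peaks of either sample gave 7.19%, -2.78 bp, a promoter difference of 31.2 points, an intergenic difference of -11.8, an agreement difference of -12.0, a motif difference of -4.78 and 93.5% within 150 bp. Counting as inside only footprints with 50% of their bases in a peak gave 11.9% outside, -2.20 bp, a motif difference of -4.06 and 93.2% within 150 bp. Footprints of 10 bp or more gave 8.47% outside, a promoter difference of 27.3, an intergenic difference of -10.4, 64.9% agreement, a motif difference of -4.38, 93.1% within 150 bp and 89.4% under a rate of 0.001. Requiring 50% of each footprint to be shared gave 31.8% agreement, and the same ends 2.41% (difference -0.566). Autosomes alone gave a motif difference of -3.95, a 60 bp window -6.24, protein-coding records an intergenic difference of -11.0, a promoter window of 2500 bp a difference of 24.7, medians a width difference of -1 bp, and 63.8% lay within 50 bp. The cause was not tested.

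Leaving out 1 of 2 replicates leaves the value of the other, which says nothing of stability; these single values ran over 10.5 to 11.0% (outside share), -2.70 to -2.52 bp (width), 25.05 to 26.7 (promoter), -9.94 to -9.38 (intergenic), 36.3 to 52.5% (agreement), -10.1 to -5.86 (agreement difference), 92.3 to 92.5% (within 150 bp), 1.40 to 2.56 (GC), -4.05 to -3.99 (motifs) and 81.8 to 84.4% (rate under 0.001). Depth is unknown, so whether a footprint missing from a sample was absent or undetectable cannot be told apart.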

Other observations

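The outside share varied by chromosome. Among autosomes it ran from 9.45% (chromosome 3) to 12.1% (chromosome 7) in replicate 1 and from 9.90% (chromosome 13) to 13.1% (chromosome 17) in replicate 2. Chromosome 7 was at 12.7% in replicate 2 and chromosome 17 at 11.4% in replicate 1. The X chromosome stood below all autosomes in both, with 622 of 7241 footprints outside (8.59%) and 470 of 5052 (9.30%). The Y chromosome had 6 of 89 and 17 of 104.

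Footprint widths did not decline evenly. Outside peaks, 4.98% and 5.47% of footprints were 13 bp wide and 1.78% and 1.73% were 14 bp wide. The same step was present inside peaks, with 5.75% and 5.60% at 13 bp and 1.92% and 1.83% at 14 bp. The sources used here do not describe how footprint widths were set.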
